A study of Rattus norvegicus with 2 samples.

Results

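The genes described are 10 regulators of signalling from receptors to NF-kappaB: the ubiquitin-editing enzyme gene Tnfaip3, which encodes A20, and its partner Tnip1, the TRAF adaptor genes Traf1, Traf2, Traf3 and Traf6, the ubiquitin ligase genes Birc2 and Birc3, and the IkappaB kinase genes Ikbkb and Chuk. They were taken by name from a table of 14913 genes, and all 10 were found there. The data are poly(A) RNA-seq read counts from RBL-2H3, a tumour line of rat basophilic leukemia that serves as a mast cell model. There was 1 library of IgE-treated cells and 1 library of untreated cells, both labelled wild type. The labels gave neither dose, time nor antigen for the IgE incubation, and both libraries came from this 1 line, which limits them as a model of primary mast cells. With 1 library in each group, every difference below is between these 2 libraries and has no replicate check.

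In human and mouse cells, TRAF proteins carry signals from TNF receptors, interleukin-1 receptors and Toll-like receptors to kinases. The ligases encoded by Birc2 and Birc3 bind TRAF2 and attach ubiquitin chains, on which TAK1 and the IkappaB kinase (IKK) complex assemble. IKK then marks the IkappaB inhibitors for destruction, which frees NF-kappaB, and A20 trims the chains and dampens the signal. In mouse mast cells, the high-affinity IgE receptor also reaches NF-kappaB, through BCL10 and MALT1, and TRAF6 takes part in the cytokine response to that receptor.

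None of the 10 transcripts differed by 2-fold between the IgE and the untreated library. Their log2 folds of IgE over untreated lay between -0.19 for Tnip1 and 0.30 for Birc2, with a median of -0.042. Birc2 and Birc3 were the highest, and both were about as far above 0 as the IkappaB gene Nfkbia. Over all 12102 genes with at least 20 reads, 2.63% were 2-fold apart in either direction, and the median log2 fold was 0.0049. With at least 100 reads, which all 10 genes had, the share was 0.347% of 10367 genes. Summed over the 10 genes, the level was 500.4 CPM (reads scaled to library size by TMM) in the IgE library and 499.7 CPM in the untreated library.

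The IgE library held 26268330 counted reads and the untreated library 20917968. The 10 genes had from 331 to 5649 reads over both libraries. Each interval given with a log2 fold is the 95% Clopper-Pearson interval, an exact one, of the ratio of reads, and covers counting error only, not variation between cultures. All 8 mast cell and basophil markers were counted in both libraries, with log2 folds between -0.11 and 0.34. The 3 macrophage markers in the table summed to 3.21 CPM in the IgE library and 5.48 CPM in the untreated library, and the 3 lymphocyte markers to 16.8 and 15.8 CPM. Of fibroblast and epithelial markers, the 2 in the table summed to 252.8 CPM in the IgE library and 281.6 CPM in the untreated library, nearly all of it Col3a1. The part of these transcripts in the results was not tested.

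**Figure D1:**
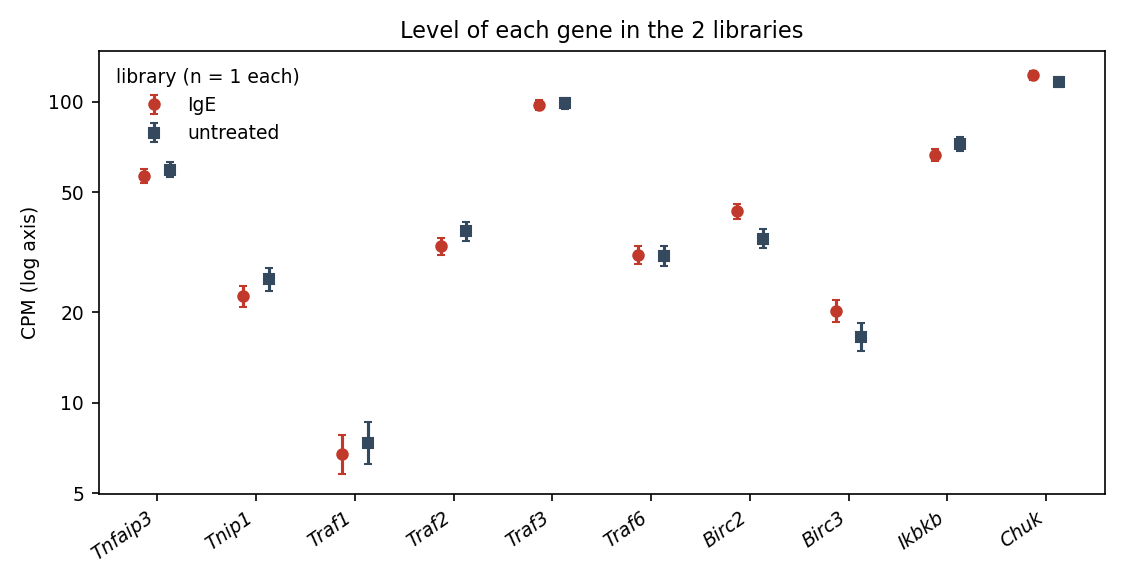
Level of each of the 10 genes in CPM on a log axis, in the IgE library (circles, left) and the untreated library (squares, right), with exact Poisson 95% intervals for counting error and n = 1 library each. Levels of different genes are not scaled for transcript length. The bars of Birc2 and, narrowly, of Birc3 do not overlap, and those of the other 8 genes do. The share of all genes whose bars do not overlap was not computed, so this sets neither gene apart.

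Tnfaip3 encodes A20, which removes ubiquitin chains from signalling complexes and is itself a well-known NF-kappaB target in human and mouse cells. It had 1487 reads in the IgE library and 1250 in the untreated library, which are 56.8 and 59.6 CPM. The log2 fold was -0.069 (interval -0.18 to 0.041), so the libraries were not distinguishable beyond counting error. Tnip1, which encodes the ubiquitin-binding protein ABIN1 that works with A20, had 591 reads in the IgE library and 539 in the untreated library, or 22.6 and 25.7 CPM. Its log2 fold of -0.19 (-0.36 to -0.015) was the lowest of the 10. The read ratio of Tnfaip3 to Tnip1, which needs no scaling, was 2.52 in the IgE library and 2.32 in the untreated library, a log2 change of 0.12 (-0.086 to 0.32). Nfkbia, another well-known NF-kappaB target, differed from Tnfaip3 in its change, with 0.455 reads per Tnfaip3 read in the IgE library and 0.350 in the untreated library (log2 change 0.38, 0.17 to 0.59).

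NF-kappaB binds sequences close to GGGNNTTTCC, and the stretch before the start site of these genes was read to see which of them carry such letters near the start. The windows are the 250 bases before the listed start in RefSeq (build GRCr8), printed 5′ to 3′ on the gene's strand with each match to GGGNNNTTCC on either strand in capitals. A match on the opposite strand appears as its reverse complement, GGAANNNCCC. The Tnfaip3 and Tnip1 windows are shown as those of the A20 pair.
Tnfaip3, chr1:15543980-15544229, minus strand: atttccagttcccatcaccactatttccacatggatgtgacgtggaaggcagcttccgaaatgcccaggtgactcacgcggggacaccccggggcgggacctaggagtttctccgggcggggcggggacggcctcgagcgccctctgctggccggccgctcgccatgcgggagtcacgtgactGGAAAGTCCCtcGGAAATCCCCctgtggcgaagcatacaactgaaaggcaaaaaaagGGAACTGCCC
Tnip1, chr10:39584962-39585211, minus strand: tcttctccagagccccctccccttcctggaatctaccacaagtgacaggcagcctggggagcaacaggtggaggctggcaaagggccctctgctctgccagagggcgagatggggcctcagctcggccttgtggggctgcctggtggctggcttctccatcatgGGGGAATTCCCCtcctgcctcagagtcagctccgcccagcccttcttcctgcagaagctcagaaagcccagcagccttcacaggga
The Tnfaip3 window held 2 matches to GGGNNTTTCC, at 67 to 58 and 55 to 46 bases before the start, both on the opposite strand. A further match to GGGNNNTTCC, also on the opposite strand, ended at the last base of the window. The Tnip1 window held a palindromic stretch, GGGGAATTCCCC, that matches GGGNNNTTCC on both strands between 86 and 75 bases before the start. These matches describe the letters and do not show binding.

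Of the 4 TRAF transcripts, Traf3 and Traf6 had the log2 folds nearest to 0 of the 10 genes, while Traf1 and Traf2 were lower. Traf3, which encodes an adaptor that keeps the kinase NIK unstable, had 2560 reads in the IgE library and 2073 in the untreated library, or 97.8 and 98.8 CPM (log2 fold -0.015, -0.099 to 0.069). Traf6, the ligase downstream of interleukin-1 and Toll-like receptors, had 812 and 646 reads, or 31.0 CPM in the IgE library and 30.8 CPM in the untreated library (0.0105, -0.14 to 0.16). Both intervals bound any difference in these libraries, counting error alone considered, to well under 1.5-fold. Traf2, which brings the Birc2 and Birc3 proteins to TNF receptors, was lower, with 867 reads in the IgE library and 778 in the untreated library, or 33.1 and 37.1 CPM (-0.16, -0.30 to -0.022). Traf1, which lacks the RING domain of the other family members and is an NF-kappaB target in human cells, had the fewest reads of the 10, 177 in the IgE library and 154 in the untreated library. That is 6.76 and 7.34 CPM, and its log2 fold of -0.12 had an interval from -0.44 to 0.20. Measured against Traf2, the intervals of the read ratios of Traf1, Traf3 and Traf6 all held 0, with log2 changes of 0.045 for Traf1 (-0.31 to 0.40), 0.15 for Traf3 (-0.017 to 0.31) and 0.17 for Traf6 (-0.034 to 0.38).

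The Traf3 window is shown because it carries a match to GGGNNTTTCC in the 10 bases just before the start, as does, within 13 bases of it, that of Nfkbiz, an IkappaB gene that was 2-fold higher in the IgE library.
Traf3, chr6:136026799-136027048, plus strand: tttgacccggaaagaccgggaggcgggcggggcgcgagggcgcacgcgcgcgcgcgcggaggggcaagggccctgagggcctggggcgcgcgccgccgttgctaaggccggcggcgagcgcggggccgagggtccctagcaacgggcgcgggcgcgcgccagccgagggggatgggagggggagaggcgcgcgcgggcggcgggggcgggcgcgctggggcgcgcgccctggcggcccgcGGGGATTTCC
Nfkbiz, chr11:58251471-58251720, plus strand: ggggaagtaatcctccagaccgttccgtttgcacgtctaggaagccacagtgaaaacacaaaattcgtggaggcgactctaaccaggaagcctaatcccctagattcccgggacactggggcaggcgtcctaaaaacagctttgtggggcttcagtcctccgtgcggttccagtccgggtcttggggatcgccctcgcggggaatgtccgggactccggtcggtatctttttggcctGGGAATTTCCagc
Nfkbiz had 511 reads in the IgE library and 195 in the untreated library, or 19.5 and 9.29 CPM (log2 fold 1.07, 0.83 to 1.32). Of Traf3, with the same kind of match, the log2 fold was -0.015. The window of Nfkbia also held GGGNNTTTCC, and its log2 fold was 0.31. Nfkbid, at 1.28, had 4 windows, and none of them held GGGNNTTTCC or GGGNNNTTCC. Windows were at hand for 7 of the 10 genes, and those of Traf6, Birc3 and Ikbkb were not analysed here. Of the 7, 2 held GGGNNTTTCC (Tnfaip3 and Traf3), 4 held the looser GGGNNNTTCC, of which the first is a special case (Traf1 and Tnip1 as well), and 5 held GGGNNNNNCC, which includes both. In all 33469 RefSeq windows of this length, the shares were 1.3%, 4.53% and 42.3%, and over the 8560 genes with a window and at least 20 reads they were 1.51%, 5.93% and 61.7%. A search for the NF-kappaB consensus by name found it in 3 of the 7 (Tnfaip3, Tnip1 and Traf3) and in 6.33% of all windows, or 8.66% of those 8560 genes. Of the 8560 genes, 129 held GGGNNTTTCC, and 1 of these, Nfkbiz, or 0.775%, was at least 2-fold higher in the IgE library, against 0.771% of all 8560. Their median log2 fold was -0.0055.

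Birc2 and Birc3 encode the cellular inhibitor of apoptosis proteins cIAP1 and cIAP2, ubiquitin ligases that act on RIPK1 and, with TRAF2 and TRAF3, on NIK. They are neighbours in the RefSeq gene order of the rat (GRCr8). Birc2 had 1134 reads in the IgE library and 736 in the untreated library, or 43.3 CPM (exact Poisson interval 40.8 to 45.9) and 35.1 CPM (32.6 to 37.7). Its log2 fold of 0.30 (0.17 to 0.44) is a 1.23-fold higher level in the IgE library. Birc3 had 528 reads in the IgE library and 347 in the untreated library, or 20.2 and 16.5 CPM, with a log2 fold of 0.29 (0.088 to 0.49). The ratio of Birc2 to Birc3 reads was 2.15 in the IgE library and 2.12 in the untreated library, a log2 change of 0.018 (-0.22 to 0.26), so any unequal change of the pair was within counting error.

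Differences of this size were not rare in these libraries. Of 10367 genes with at least 100 reads, 7.28% had a higher log2 fold than Birc2 and 8.19% a higher one than Birc3, and 12.2% lay farther from 0 than Birc2 in either direction. The central 95% of log2 folds among 9151 genes with at least 300 reads ran from -0.32 to 0.38, and all 10 genes lay inside it. With more reads it narrowed, to -0.30 to 0.36 among 8369 genes with at least 500 reads. Among 5079 genes with at least 2000 reads it ran from -0.25 to 0.31. Birc2, with a log2 fold of 0.30, was near the upper edge of this last range, whose genes all had more than its 1870 reads. No range was computed for genes of its depth alone. The Birc2 window is shown as that of the gene with the highest log2 fold of the 10.
Birc2, chr8:13271541-13271790, minus strand: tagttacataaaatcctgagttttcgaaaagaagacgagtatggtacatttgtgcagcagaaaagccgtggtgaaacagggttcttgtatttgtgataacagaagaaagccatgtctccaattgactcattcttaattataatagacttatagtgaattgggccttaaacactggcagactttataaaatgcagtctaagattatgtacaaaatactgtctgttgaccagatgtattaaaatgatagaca
None of the motifs searched was found in these 250 bases.

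Ikbkb and Chuk encode IKKbeta and IKKalpha, the catalytic subunits of the IKK complex, of which IKKbeta is the main kinase of IkappaB and IKKalpha also serves the non-canonical branch that is driven by NIK. Ikbkb had 1741 reads in the IgE library and 1521 in the untreated library, or 66.5 and 72.5 CPM (log2 fold -0.12, -0.22 to -0.024). Chuk had 3207 reads in the IgE library and 2442 in the untreated library, or 122.5 and 116.4 CPM (0.074, -0.0026 to 0.15). There were 1.84 Chuk reads per Ikbkb read in the IgE library and 1.61 in the untreated library, a log2 change of 0.20 (0.072 to 0.32). The change of this ratio was past its single 95% counting interval, although each gene was within 0.13 of 0. With the interval held over all 45 pairs of the 10 genes, it ran from -0.011 to 0.41 and held 0. Of all pairs of genes with at least 100 reads, 38.3% were past the single interval, so such a change was not rare. Ikbkg, which encodes the scaffold subunit NEMO and is named for its role, had 1066 and 845 reads, or 40.7 CPM in the IgE library and 40.3 CPM in the untreated library (0.016, -0.12 to 0.15).

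**Figure D2:**
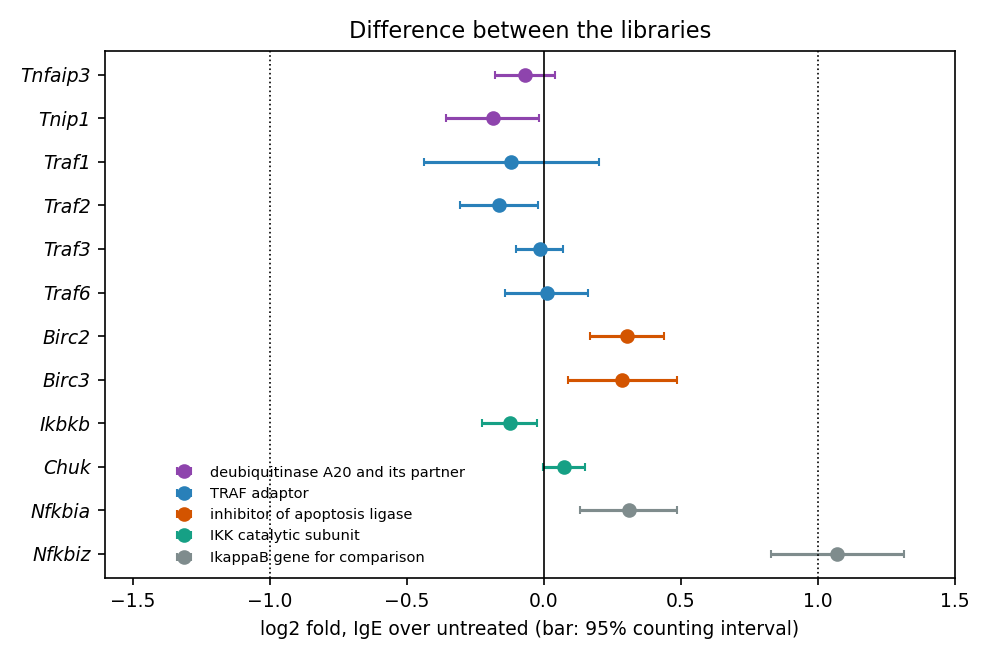
Log2 fold of IgE over untreated for the 10 genes, coloured by role, and for Nfkbia and Nfkbiz. Bars are exact 95% counting intervals, and dotted lines mark a 2-fold difference. The intervals of Birc2 and Birc3 lie above 0, those of Tnip1, Traf2 and Ikbkb below 0, and those of the other 5 genes hold 0.

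The counting interval lay above 0 for 2 of the 10 genes (Birc2 and Birc3) and below 0 for 3 (Tnip1, Traf2 and Ikbkb). Of the 10367 genes with at least 100 reads, 21.8% had an interval above 0, 20.1% one below 0, and 41.9% either. Over all 12102 genes the share for either direction was 38.5%. The 5 genes of 10 are therefore near the background, and the interval rule sets none of them apart from other genes. In the authors' deposited table, the log2 fold changes of the 10 lay between -0.20 for Tnip1 and 0.30 for Birc2. The p-values given there compare 1 library with 1 library. They cannot measure variation between cultures and are not used here. The authors' deposited table with their selected genes held none of the 10.

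**Figure D3:**
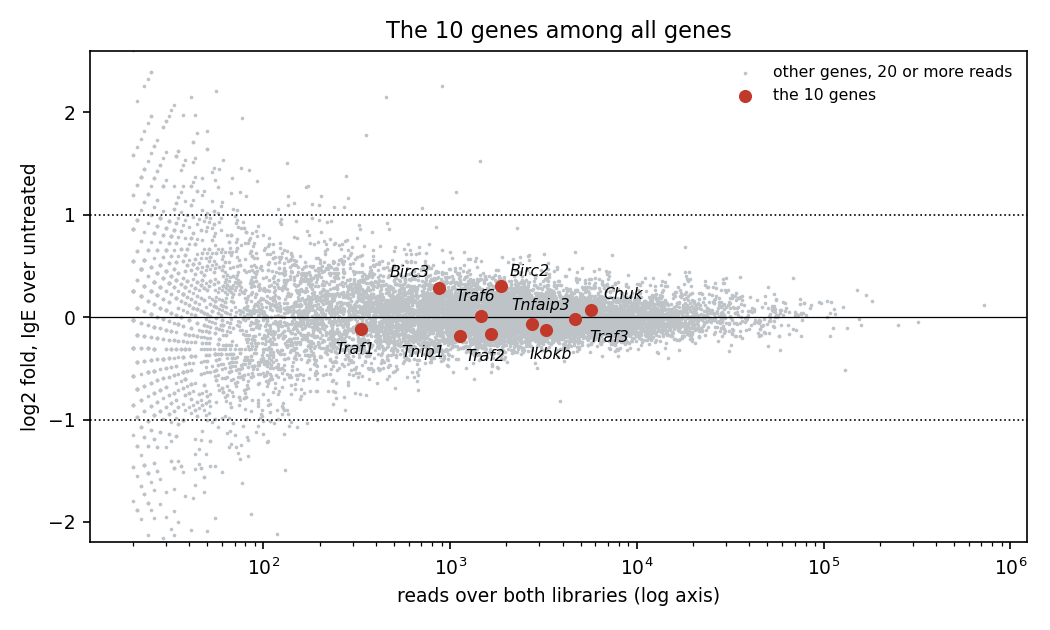
Log2 fold of IgE over untreated against reads over both libraries (log axis) for genes with at least 20 reads, with the 10 genes in red and dotted lines at a 2-fold difference. The 10 genes sit within the band of the other genes, and 23 genes lie beyond the vertical axis.

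Ratios between the genes need no scaling of the libraries. In each pair the gene with the higher log2 fold was put on top, so Birc2 and Birc3 stand above every other member by construction. Of the 45 pairs among the 10 genes, 19 (42.2%) changed in their read ratio by more than the 95% counting interval. Of those, 15 had Birc2 or Birc3 on top, out of 16 pairs that set either of them over another member. These pairs share the same reads of Birc2 and Birc3 and are not separate results. With intervals held at 95% over the 45 pairs together, 8 pairs (17.8%) remained past counting error, all with Birc2 or Birc3 on top. Of all pairs of genes with at least 100 reads, 38.3% and 16.6% were past the same limits, so these shares too were near the background. The widest change was that of Birc2 to Tnip1, the genes with the highest and the lowest log2 fold. There were 1.92 Birc2 reads per Tnip1 read in the IgE library and 1.37 in the untreated library (log2 change 0.49, 0.27 to 0.71). Birc2 to Traf2, its binding partner, stood at 1.31 in the IgE library and 0.946 in the untreated library (0.47, 0.27 to 0.66).

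**Figure D4:**
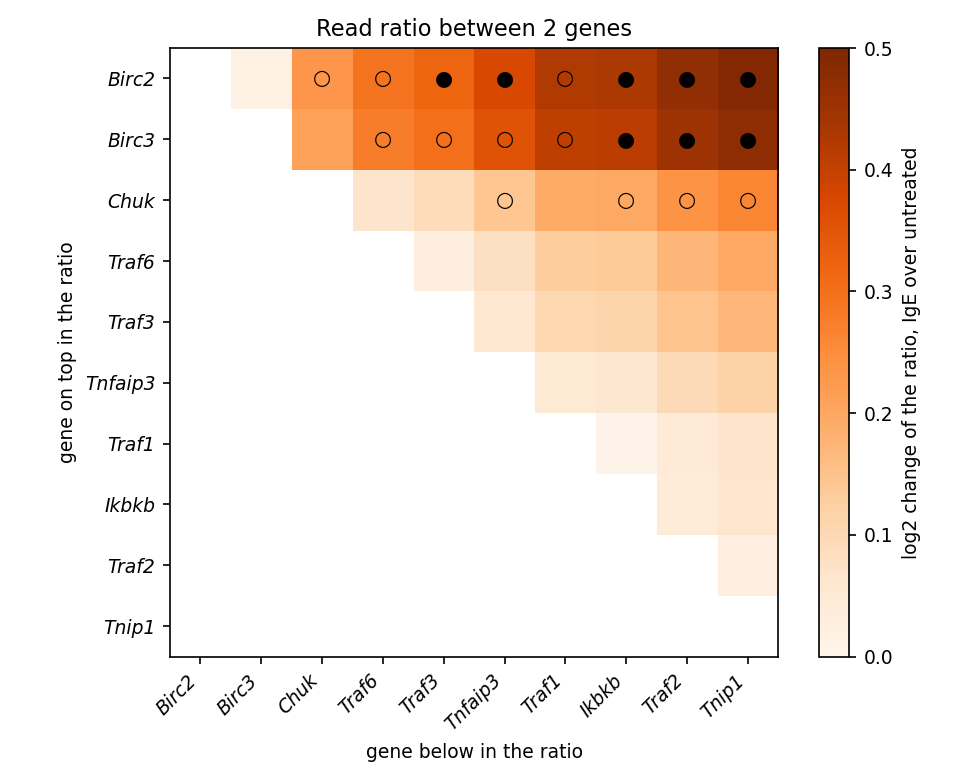
Log2 change of the read ratio between pairs of the 10 genes, IgE over untreated, with genes ordered by log2 fold and the gene with the higher fold on top. Open circles mark pairs past the 95% counting interval, filled circles those past the interval held over all 45 pairs. The 8 filled circles are all in the rows of Birc2 and Birc3.

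Other genes of the pathway were described by lists chosen with earlier results of these data known, and in some of these lists the single genes spread wider than the 10. The lists include genes with as few as 20 reads, whereas each of the 10 had at least 331. Over all genes, the standard deviation of log2 folds was 0.37 with at least 20 reads and 0.18 with at least 300. The part of read number in the wider spread was not tested. Among 11 further TRAF genes and partners, none reached 2-fold, 1 interval lay above 0 and 2 below, and the median log2 fold was -0.065. Of all 12102 genes with at least 20 reads, 2415 had an interval above 0 and 2250 one below. Tradd, the adaptor that links the TNF receptor to TRAF2, was highest at 0.39 (149 and 91 reads in the IgE and the untreated library, 0.0062 to 0.78), followed by the TRAF6 partner Tifa at 0.29 on 23 and 15 reads (-0.70 to 1.34). Traf3ip3 was lowest at -0.69 (50 and 65 reads, -1.26 to -0.14), and Traf5 stood at -0.17 (-0.35 to 0.018).

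Of 12 further kinases and kinase partners, none reached 2-fold, 1 interval lay above 0 and 5 below, and the median was -0.073. The shares over all genes with at least 100 reads were 21.8% above 0 and 20.1% below. Map3k8, a kinase upstream of ERK, was highest at 0.18 (-0.061 to 0.42) and the TBK1 adaptor gene Azi2 next at 0.16 (-0.0029 to 0.32). Of the TAK1-binding protein genes, Tab1 and Tab3 had the lowest folds of the list, Tab1 at -0.39 on 18 reads in the IgE library and 19 in the untreated library (-1.41 to 0.61), and Tab3 at -0.31 (818 and 813 reads, -0.45 to -0.17), whereas Tab2, given as the remaining gene of that kind, was at -0.076 (-0.15 to -0.0040). Map3k14, named for its role because it encodes NIK, the kinase that TRAF3 and the Birc2 and Birc3 proteins hold down, was at -0.12 (-0.34 to 0.092).

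The 19 tested ubiquitin enzymes and ubiquitin-binding partners ranged from -0.24 to 0.14 with a median of -0.076, 3 intervals above 0 and 5 below. All 19 had at least 100 reads, and of all such genes 21.8% had an interval above 0 and 20.1% one below. Rnf31, the catalytic subunit of the linear ubiquitin ligase, was lowest at -0.24 (-0.41 to -0.077) and the deubiquitinase gene Otub1 next at -0.17 (-0.64 to 0.30). The conjugating enzyme gene Ube2d3 was highest at 0.14 (0.092 to 0.18), followed by Xiap, of the same family as Birc2, at 0.11 (-0.061 to 0.28). Cyld, named for its role as another deubiquitinase of this pathway, was at 0.067 (-0.0026 to 0.14).

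Upstream of TRAF6, 10 genes were tested, of which 0 intervals lay above 0 and 3 below, with a median of -0.0094. For all genes with at least 100 reads these shares were 21.8% and 20.1%. Irak2, a kinase of the interleukin-1 and Toll-like receptor complex, had the highest log2 fold, 0.48, on 77 reads in the IgE library and 44 in the untreated library (-0.065 to 1.06). Malt1, the protease that the IgE receptor engages in mouse mast cells, was next at 0.14 (-0.0031 to 0.28). Il1rap, a co-receptor of interleukin-1 and interleukin-33, was lowest at -0.18 (-0.29 to -0.066), and Irak3, an inhibitor of the same complex, was at -0.16 (-0.43 to 0.11). Of 16 TNF receptor family genes, 12 were not analysed here and 3 passed the minimum of reads, Tnfrsf9 at -0.0019, Tnfrsf12a at -0.14 and Tnfrsf4 at -0.30 on 10 reads in each library, with intervals that all held 0.

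Among death-domain partners, Diablo, which encodes an antagonist of the inhibitor of apoptosis proteins, had 11 reads in the IgE library and 26 in the untreated library. Its log2 fold of -1.51 (-2.73 to -0.49) was the only one of the 7 past 2-fold, and it was -1.20 with a prior of 5 counts. Of all 12102 genes with at least 20 reads, 318 (2.63%) were 2-fold apart, and only 36 of these had at least 100 reads. Most calls past 2-fold thus fell, like Diablo, on genes with few reads. Casp8, the initiator caspase, was at 0.28 (541 and 357 reads, 0.085 to 0.48) and Mlkl at 0.23 (-0.50 to 0.98), while Fadd was at -0.10 (-0.25 to 0.042).

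NF-kappaB genes on the far side of the pathway spread wider. Of 10 subunit and IkappaB genes, 2 were at least 2-fold higher, against 1.33% of all genes, namely Nfkbid (131 and 43 reads in the IgE and the untreated library, log2 fold 1.28, 0.78 to 1.82) and Nfkbiz, and 0 were 2-fold lower, against 1.30%. Their median log2 fold was 0.021, with 3 intervals above 0 and 2 below, against 2415 and 2250 of all 12102 genes. The lowest were Rela at -0.23 (-0.32 to -0.13) and Nfkb2 at -0.19 (-0.37 to -0.016). Of 15 tested genes often described as NF-kappaB targets, which include Tnfaip3, Traf1 and Birc3, 1 was 2-fold higher, 8 intervals lay above 0 and 1 below, and the median was 0.26. Over all genes with at least 100 reads, 21.8% of intervals lay above 0 and 20.1% below. Ccl2 was highest, at 29.5 CPM in the IgE library and 6.15 CPM in the untreated library (2.26, 1.99 to 2.54), then Tnf at 0.92 on 50 and 21 reads (0.17 to 1.74), while Icam1 (-0.14) and Irf1 (-0.11) were lowest beside the members. Within this list Birc3 stood at 0.29, close to Nfkbia at 0.31 (0.13 to 0.49), and Tnfaip3 and Traf1 at -0.069 and -0.12. The read ratio of Nfkbia to Birc3 was 1.28 in the IgE library and 1.26 in the untreated library (log2 change 0.024, -0.24 to 0.29), and that of Nfkbiz to Tnfaip3 was 0.344 and 0.156 (1.14, 0.87 to 1.41).

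**Figure D5:**
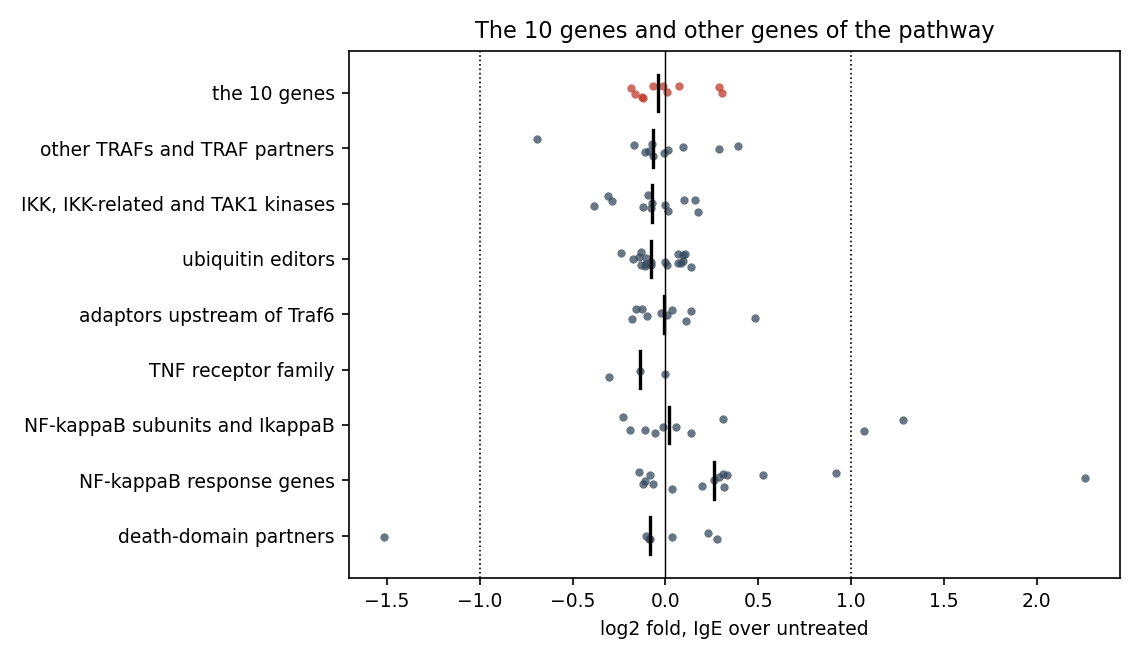
Log2 fold of IgE over untreated for the 10 genes (top, red) and for the pathway lists, genes with at least 20 reads. Birc3, Tnfaip3 and Traf1 are drawn again in the list of NF-kappaB response genes, and Nfkbia and Cflar appear in more than 1 list. Each point is 1 gene, black bars are medians, and dotted lines mark a 2-fold difference. The 10 genes lie between -0.19 and 0.30, and the points past 2-fold are Nfkbid, Nfkbiz, Ccl2 and Diablo.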

How the data were processed

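The authors deposited raw read counts per gene name for the 2 libraries and, per the file headers, their log2 fold change with a p-value and an adjusted p-value. A second deposited table is a subset of the first. Build rn6 and the tools HISAT2 2.1.0, fastp 0.23.0 and DESeq2 1.18.1 appear in the submitters' processing notes, without their roles. Not given in the sources used here are the counter, its strand setting and how it treated multiply mapped reads. Of 16990 rows, 2077 repeated a name with identical values and were kept once. CPM and log2 folds (IgE over untreated) were computed in edgeR 4.0.16 (R 4.3.3) after TMM scaling, adding a prior of 0.5 counts, for genes that had at least 20 reads in all. Groups were taken from the treatment labels. With 1 library per group no test across samples was made: a 2-fold rule, exact counting intervals and the share of all genes past the same rule stand in its place. Ratios of 2 genes carry Fisher's conditional exact interval, and their background over all gene pairs a normal interval, by which 20 and 8 member pairs passed. The calculation was tested on simulated data. Promoter windows came from RefSeq (GRCr8), matched by symbol. The named genes were the 10 members, the 2 highest and 2 lowest of each list with any past 2-fold, and a few named for their role. Members and lists were chosen with earlier results of these data known, and the motifs and gene pairs after values were seen. Alternatives were library totals, DESeq2 1.42.0 size factors, a prior of 5 counts, other read minimums, a 1.5-fold rule and 99% intervals.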

Additional observations from a re-analysis of the deposited data

How the results depend on the processing

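Under library totals, DESeq2 size factors and a prior of 5 counts, all 30 alternative log2 folds of the 10 genes and all 246 of the other listed genes stayed within their counting intervals. This outcome was largely fixed in advance. Both scalings move all genes nearly alike and by little, and a larger prior moves mainly genes with few reads, whose intervals are wide. None of the 10 genes was 2-fold apart under any scaling, prior or minimum, nor 1.5-fold apart. With 99% intervals, Birc2 and Birc3 still lay above no change, and 0 of the 10 lay below, in place of 3. The share of all genes past a 99% interval was not computed, so these counts do not set the genes apart from others. The count of gene pairs past counting error was 8 over all pairs together in place of 19, an alternative chosen after seeing the data. List medians were set against the counting interval of the list's summed reads, placed around the main median. This is not an interval of a median. Under the alternatives they stayed inside it in 39 of 40 cases, the other being the NF-kappaB target list at 0.20 with no minimum of reads. Over all genes, 161 were 2-fold higher and 157 lower, against 104 and 99 with a prior of 5 counts, 855 and 875 with no minimum, 21 and 15 with a minimum of 100 reads, and 443 and 427 by a 1.5-fold rule. The prior and the minimum act on weakly expressed genes by construction. Library totals moved the median of all genes by -0.0092, and DESeq2 size factors by -0.0025. No paired analysis was possible because only 1 library represents each group, and for the same reason none could be left out. Variation between cultures was not measured.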

Other observations

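Birc2 and Birc3 lie side by side in the RefSeq gene order of the rat (GRCr8), and their coding neighbours were looked at after the values of the pair were seen. Tmem123, next to Birc2, had 3785 reads in the IgE library and 2841 in the untreated library, or 144.5 and 135.4 CPM, with a log2 fold of 0.094 (counting interval 0.024 to 0.17). The neighbour on the side of Birc3, Yap1, was not analysed here. Cep126, farther on that side, had 49 reads in the IgE library and 55 in the untreated library (-0.48, -1.07 to 0.096).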
